A study of Mus musculus with 15 samples.

Results

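The respiratory chain and ATP synthase genes were followed across 3 states of the mouse cortex, taken as every symbol of the deposited count table that starts with Ndufa, Ndufb, Ndufc, Ndufs, Ndufv, Uqcr, Cox4, Cox5, Cox6, Cox7, Cox8 or Atp5, pseudogenes left out, the genes Sdha, Sdhb, Sdhc and Sdhd, and the 13 protein genes of mitochondrial DNA. This gave 105 of 53278 symbols: 81 nuclear genes of subunits, 13 mitochondrially encoded genes, and 11 assembly factors or paralogs that the prefixes take in (Ndufaf1 to Ndufaf8, Cox7a2l, Ndufa4l2 and Atp5s). After a filter on low counts, 100 of the 105 were tested, among 18369 genes. The 5 left out were Cox7b2, Cox8b, Cox8c, mt-Nd4l and mt-Atp8. Bulk RNA was sequenced from the brain cortex of 15 male C57BL/6J mice aged 10 to 20 weeks, 1 library per mouse, in 3 groups of 5. Mice of the repopulation group received PLX3397 in their food over 9 days and were returned to control food over another 9, mice of the depletion group received the PLX3397 food over 9 days, and mice of the control group received control food. PLX3397 blocks CSF1R, a receptor tyrosine kinase that microglia need to survive. It reaches other cells and other kinases too, and the repopulation mice differ from the depletion mice in both the presence of microglia and the absence of the drug. They also differ in time, with 9 more days since the PLX3397 food began.

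Oxidative phosphorylation takes place in the inner mitochondrial membrane. Complex I and complex II pass electrons from NADH and succinate to ubiquinone, complex III passes them on to cytochrome c, and complex IV to oxygen, while complexes I, III and IV pump protons that drive ATP synthase, also called complex V. Complex II and most subunits of the others come from nuclear genes, and the remaining core subunits come from the mitochondrial genome, so that the 2 genomes must supply parts of the same complexes. In the brain, neurons draw most of their ATP from this pathway.

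Total counts ran from 23413551 to 48617851 per library, and levels are given as CPM, counts scaled to library size. Csf1r, which microglia express, read 98.8, 105, 105, 102 and 113 CPM in repopulation libraries, 0.427, 0.176, 0.174, 0.171 and 0.129 CPM in depletion libraries and 85.8, 87.6, 89.2, 79.3 and 81.99 CPM in control libraries. The 15 microglia markers all fell with PLX3397, with a summed level of 28.0 to 33.3 CPM in the depletion libraries against 382 to 423 CPM in the control libraries, and 4 rose and 1 fell in the repopulation libraries (416 to 470 CPM) against the control libraries. The labelled tissue carried high summed levels of excitatory neuron markers (4915 to 5533 CPM in the repopulation libraries, 5157 to 5516 CPM in the depletion libraries and 5357 to 5808 CPM in the control libraries). Choroid plexus markers varied widely between libraries within groups, at 10.5 to 569 CPM in the repopulation libraries, 16.5 to 222.5 CPM in the depletion libraries and 10.3 to 26.8 CPM in the control libraries. None of the 7 tested was called by edgeR in any comparison (2 were higher at an unadjusted p under 0.05, and 1 by DESeq2, in repopulation against control). In bulk tissue, fewer cells of a type and less RNA per cell cannot be told apart.

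The nuclear subunits were lower in the repopulation libraries than in both other groups, while the summed shares of the mitochondrially encoded genes overlapped between the groups. The 81 nuclear subunit genes took 0.536 ± 0.0157% of the library counts in the repopulation group, 0.613 ± 0.0385% in the depletion group and 0.642 ± 0.0263% in the control group (SD, n = 5 each). The highest repopulation library, at 0.556%, lay below the lowest depletion library, at 0.579%, and the lowest control library, at 0.615%. The mitochondrially encoded protein genes took 3.45 ± 0.0708% of the counts in the repopulation group, 3.56 ± 0.206% in the depletion group and 3.58 ± 0.116% in the control group, and these ranges overlap. Set against each other, the libraries held 15.5 ± 0.321 nuclear subunit counts per 100 mitochondrially encoded counts after repopulation (15.03 to 15.8), 17.2 ± 0.678 on PLX3397 (16.2 to 18.1) and 17.98 ± 0.821 in the controls (17.4 to 19.4). On the log2 scale the difference in this ratio of sums was -0.21 in repopulation against control, -0.15 in repopulation against depletion and -0.06 in depletion against control. The last was -0.036 without control 1, -0.041 without depletion 3 and -0.11 by medians over genes. No p is attached to these sums, because the members were chosen with earlier results of these data known.

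**Figure D1:**
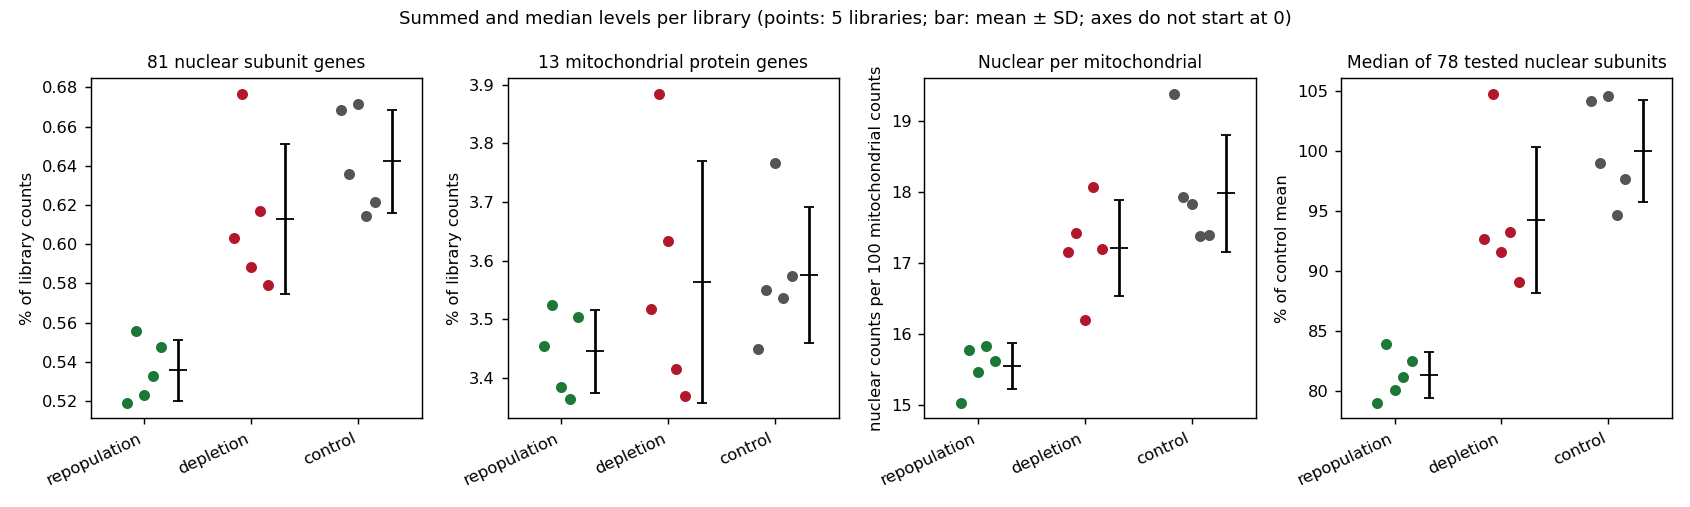
Each point is 1 library, with repopulation left, depletion in the middle and control right; the bar is the group mean ± SD of 5 libraries, and the y axes give the percentage of library counts, the nuclear counts per 100 mitochondrial counts and the percentage of the control mean. The 5 repopulation libraries lie below all libraries of both other groups for the nuclear sum (0.519 to 0.556%), whereas the mitochondrial sums overlap.

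With PLX3397 withdrawn for 9 days, 68 of the 78 tested nuclear subunits fell against the control group and 0 rose, where 15.2% of all 18369 genes fell and 13.9% rose (edgeR quasi-likelihood test, Benjamini-Hochberg adjusted p under 0.05). At an unadjusted p under 0.05, 71 were lower and 1, Ndufs1, was higher, and DESeq2 called 68 lower and 0 higher. The median log2 fold change of the 78 was -0.30, against 0.01 over all genes tested. In 61 of the 78 every repopulation library lay below every control library, which held for 11.8% of all genes. Against the depletion group, which shares the repopulation libraries with the comparison above, 59 of the 78 fell and 0 rose, where 8.98% of all genes fell and 7.61% rose, with a median of -0.20 against 0.00 over all genes. DESeq2 also gave 59 and 0 there, with 69 and 0 at an unadjusted p under 0.05. In 40 of the 78 every repopulation library lay below every depletion library (6.24% of all genes). Of the 11 mitochondrially encoded genes tested, 1 rose and 1 fell in repopulation against control, and 0 rose and 2 fell in repopulation against depletion. DESeq2 gave the same counts. At an unadjusted p under 0.05, 1 was higher and 3 were lower in repopulation against control, and 1 was higher and 4 were lower in repopulation against depletion.

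**Figure D2:**
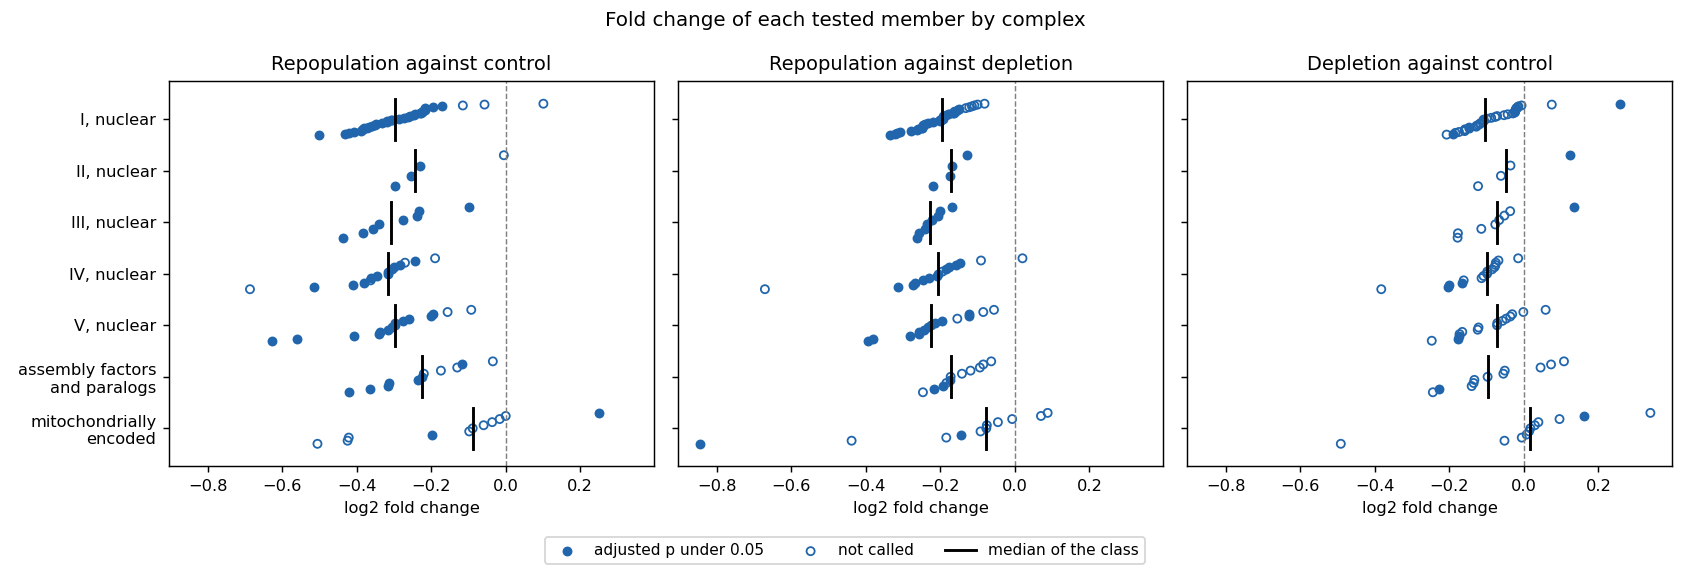
The x axis is the log2 fold change of each tested member and the rows are its complex and genome; filled points passed an adjusted p of 0.05, open points did not, and the vertical bar is the median of the row. The nuclear rows of complexes I to V lie almost wholly left of 0 in both repopulation panels, with medians from -0.32 to -0.24 against control, and the mitochondrially encoded row lies nearer to 0 apart from mt-Co1, mt-Nd5 and genes with under 2 CPM.

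The promoters of 4 members show what lies upstream of members that fell after repopulation, some with and some without a letter match to sites that are known from nuclear genes of mitochondrial proteins. The RefSeq windows (GRCm38.p6, 250 bases before the annotated start) matched 66 of the 81 nuclear subunit genes. Capitals mark exact matches to GCGCATG, the core of the NRF1 site, or CCGGAAG, the ETS core of the GABP site, on either strand; the palindromic GCGCATGCGC holds 2 overlapping NRF1 core matches.
Ndufb6, chr4:40279422-40279671, minus strand: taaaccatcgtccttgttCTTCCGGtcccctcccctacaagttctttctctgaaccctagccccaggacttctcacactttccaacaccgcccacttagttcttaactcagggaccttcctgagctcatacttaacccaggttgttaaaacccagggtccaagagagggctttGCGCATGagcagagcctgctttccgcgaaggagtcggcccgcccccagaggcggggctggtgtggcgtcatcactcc
Cox6a1, chr5:115348959-115349208, minus strand: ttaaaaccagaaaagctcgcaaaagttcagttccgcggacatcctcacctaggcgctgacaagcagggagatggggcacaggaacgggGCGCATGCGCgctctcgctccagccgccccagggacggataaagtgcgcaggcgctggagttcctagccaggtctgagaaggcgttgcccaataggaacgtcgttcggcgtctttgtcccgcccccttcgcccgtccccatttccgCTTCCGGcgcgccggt
Atp5e, chr2:174464102-174464351, minus strand: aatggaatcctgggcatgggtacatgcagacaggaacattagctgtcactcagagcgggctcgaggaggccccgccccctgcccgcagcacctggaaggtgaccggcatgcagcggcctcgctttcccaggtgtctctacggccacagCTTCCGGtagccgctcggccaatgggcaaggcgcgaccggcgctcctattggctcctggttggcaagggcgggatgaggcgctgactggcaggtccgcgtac
Atp5g3, chr2:73911327-73911576, minus strand: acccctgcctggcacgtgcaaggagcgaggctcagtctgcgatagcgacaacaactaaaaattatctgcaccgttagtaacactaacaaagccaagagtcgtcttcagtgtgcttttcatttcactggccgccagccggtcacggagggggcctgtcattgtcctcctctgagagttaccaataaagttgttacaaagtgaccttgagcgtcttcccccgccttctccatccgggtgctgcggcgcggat

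Ndufb6 and Cox6a1 hold both cores, Atp5e holds the ETS core, and Atp5g3 holds no match in this window. The NRF1 core was found in 10 of the 66 windows (15.2%), against 3.31% of the 27025 promoters of the table and 5.25% of the 12630 that belong to tested genes. The ETS core was found in 11 of the 66 (16.7%), against 7.11% of all promoters and 12.1% of those of tested genes. AAGATGG, the YY1 core, was found in 0 of the 66, against 4.50% and 4.20%. The windows end at the annotated start, so matches past it were not counted for any of these cores. Among the subunits that were tested and have a window, 16 of the 18 with a match fell in repopulation against control, and so did 41 of the 46 without a match. The median change was -0.31 on the log2 scale in each. These are matches of letters, and no binding was measured.

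Complex I, the entry point for NADH, fell nearly throughout after repopulation. Of its 36 nuclear subunits, 33 fell against control and 24 against depletion, the medians being -0.30 and -0.20 on the log2 scale. Among the 7 nuclear core subunits, which carry the flavin and the iron-sulfur clusters, 6 fell against control and 7 against depletion. Ndufv1 (chr19:4007384-4012806), the flavoprotein that takes the electrons from NADH, read 97.6, 102, 92.8, 95.8 and 95.9 CPM in repopulation libraries, 115, 122, 112, 115 and 111 CPM in depletion libraries and 118, 118, 121, 116 and 112 CPM in control libraries. All 5 repopulation libraries lay below all others, and the depletion and control libraries overlapped. Its log2 fold change, given here and below ± SE, was -0.27 ± 0.04, adjusted p = 5.02e-06 against control and -0.25 ± 0.04, adjusted p = 1.22e-05 against depletion.

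The core subunits Ndufv2 and Ndufs8, both iron-sulfur proteins, moved likewise. Ndufv2 averaged 56.6 ± 2.46 CPM in repopulation, 70.04 ± 5.79 CPM in depletion and 71.2 ± 4.001 CPM in control (SD, n = 5 each), with log2 fold changes of -0.33 ± 0.05, adjusted p = 2.57e-05 against control and -0.31 ± 0.05, adjusted p = 0.000101 against depletion. Ndufs8 averaged 30.04 ± 1.36 CPM in repopulation, 35.99 ± 4.01 CPM in depletion and 39.3 ± 1.28 CPM in control, with -0.39 ± 0.06, adjusted p = 1.93e-05 and -0.26 ± 0.06, adjusted p = 0.0025. In both genes the 5 repopulation libraries lay below the other 10. The accessory subunit Ndufb6, whose promoter is printed above, averaged 17.7 ± 1.01 CPM in repopulation, 22.3 ± 2.19 CPM in depletion and 22.5 ± 1.73 CPM in control. It had the third largest called fall among the nuclear subunits against depletion (-0.33 ± 0.07, adjusted p = 0.000881) and also fell against control (-0.35 ± 0.07, adjusted p = 0.000261). Ndufb10, another accessory subunit of the membrane arm, fell against control (-0.41 ± 0.06, adjusted p = 1.19e-05).

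Ndufs1 was the exception in complex I. It encodes the largest core subunit, and Eef1b2 and Ino80dos on the other strand share exon sequence with it, so its count is uncertain without strand. Ndufs1 (chr1:63143596-63176833) read 130.4, 137, 124, 133 and 139.8 CPM in repopulation libraries, 143, 158, 142, 155 and 143 CPM in depletion libraries and 122, 128, 122, 128 and 119.5 CPM in control libraries. The depletion libraries were the highest and overlapped neither of the other groups, and the repopulation libraries reached from within the control range to above it. Ndufs1 rose in depletion against control (0.26 ± 0.04, adjusted p = 3.58e-05) and fell in repopulation against depletion (-0.16 ± 0.04, adjusted p = 0.00626). Its repopulation against control value was 0.10 ± 0.04, adjusted p = 0.0544, not called; it passed the threshold under 6 of 23 alternative settings (the replicate block, no mitochondrial reads in the scaling, only the 2 groups compared, and without control 2, depletion 2 or repopulation 3), and was -0.01 with length and GC trends taken out. The other 2 subunits of complex I not called against control were Ndufa9 (-0.12, adjusted p = 0.0562) and Ndufb4 (-0.06, adjusted p = 0.751).

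Complex II, succinate dehydrogenase, is shared with the TCA cycle and has no mitochondrially encoded subunit. Its 4 genes all fell in repopulation against depletion, and 3 fell against control. Sdhb (chr4:140961203-140979193), the iron-sulfur subunit, read 46.9, 50.97, 52.2, 50.7 and 48.2 CPM in repopulation libraries, 54.8, 58.6, 58.2, 56.2 and 52.9 CPM in depletion libraries and 63.6, 62.8, 63.9, 59.01 and 56.2 CPM in control libraries. Every repopulation library lay below all others, with -0.30 ± 0.04, adjusted p = 2.29e-05 against control and -0.17 ± 0.04, adjusted p = 0.00857 against depletion. The membrane anchors followed, with Sdhc at -0.26 ± 0.05, adjusted p = 0.000532 and Sdhd at -0.23 ± 0.05, adjusted p = 0.000569 against control.

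Sdha (chr13:74322254-74350280), the flavoprotein that oxidises succinate, had its highest level in the depletion group. It read 354, 364, 348, 349.7 and 354 CPM in repopulation libraries, 391, 382, 371, 399 and 391 CPM in depletion libraries and 354, 357, 359, 348 and 358 CPM in control libraries. The depletion libraries lay above all others, and the repopulation and control libraries overlapped. Sdha rose in depletion against control (0.12 ± 0.03, adjusted p = 0.004) and fell in repopulation against depletion (-0.13 ± 0.03, adjusted p = 0.00281), while repopulation against control stood at -0.01 ± 0.03, adjusted p = 0.92.

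All 8 nuclear subunits of complex III among the members fell in repopulation against both groups, with medians of -0.31 against control and -0.23 against depletion. Cyc1, a subunit that the prefixes leave out, is given further below. Uqcrc1 (chr9:108936633-108949623), 1 of the 2 large core proteins of this complex, read 147, 154, 151, 151 and 158 CPM in repopulation libraries, 183, 185, 169, 186 and 165 CPM in depletion libraries and 191, 189, 179, 182 and 179 CPM in control libraries. The repopulation libraries lay below all others and the other groups overlapped, with -0.28 ± 0.04, adjusted p = 6.41e-06 against control and -0.22 ± 0.04, adjusted p = 9.97e-05 against depletion. Uqcrfs1, the Rieske iron-sulfur protein, averaged 61.9 ± 0.886 CPM in repopulation, 69.5 ± 4.07 CPM in depletion and 72.8 ± 3.91 CPM in control, with -0.23 ± 0.04, adjusted p = 0.000193 and -0.17 ± 0.04, adjusted p = 0.00823.

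Uqcrc2, the partner core protein, had its highest level on PLX3397. It read 110.0, 116, 113, 116 and 115 CPM in repopulation libraries, 130.4, 141, 129, 142 and 129 CPM in depletion libraries and 126, 123, 123, 123 and 115 CPM in control libraries. The depletion libraries overlapped neither group, while 1 control library, control 5, fell inside the repopulation range. Uqcrc2 rose in depletion against control (0.14 ± 0.04, adjusted p = 0.0108) and fell in repopulation against depletion (-0.23 ± 0.04, adjusted p = 4.59e-05). Its repopulation against control value (-0.10 ± 0.04, adjusted p = 0.0418) lost its call under 11 of 23 alternative settings, 8 of which leave out a single library (control 1, 2, 3 or 4, or repopulation 1, 3, 4 or 5).

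In complex IV, cytochrome c oxidase, the subunits in general use fell together and the tissue isoforms were not called. All 11 nuclear subunits other than the tissue isoforms fell in repopulation against control and against depletion, with medians of -0.32 and -0.21. Cox4i1 (chr8:120668222-120674207), which encodes a regulatory subunit of the oxidase, read 139.7, 156, 151, 153 and 155 CPM in repopulation libraries, 192, 218, 174, 185 and 168 CPM in depletion libraries and 229, 211, 233, 196 and 209 CPM in control libraries. The repopulation libraries lay below the other 10, and depletion and control libraries overlapped. Its log2 fold changes were -0.51 ± 0.06, adjusted p = 1.5e-05 against control and -0.31 ± 0.06, adjusted p = 0.00219 against depletion. Cox4i1 shares exon sequence with Emc8 on the other strand, so its count is uncertain without strand.

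Cox6a1 and Cox8a are small nuclear subunits with the highest levels in complex IV per summed exon length. That length takes in the exons of all annotated transcripts (702 bases for Cox6a1, 3567 for Cox6c), so the ranking also depends on the annotation. Cox6a1, whose promoter is printed above, read 109.7, 116, 108, 111 and 109 CPM in repopulation libraries, 127, 134, 129, 119.9 and 107 CPM in depletion libraries and 141, 144, 145, 139 and 142 CPM in control libraries. The repopulation and depletion libraries both lay below all controls and overlapped each other through depletion 5. Cox6a1 fell in repopulation against control (-0.36 ± 0.04, adjusted p = 2.17e-06) and against depletion (-0.16 ± 0.04, adjusted p = 0.0131). Cox8a averaged 154 ± 3.65 CPM in repopulation, 171 ± 8.37 CPM in depletion and 192 ± 5.57 CPM in control, with no overlap between any of the groups, at -0.31 ± 0.03, adjusted p = 1.2e-06 against control and -0.15 ± 0.03, adjusted p = 0.00405 against depletion. Ndufa4, first assigned to complex I and now to complex IV, averaged 78.9 ± 2.31 CPM in repopulation, 92.6 ± 3.46 CPM in depletion and 98.2 ± 5.78 CPM in control, with -0.32 ± 0.04, adjusted p = 4.19e-06 and -0.23 ± 0.04, adjusted p = 0.000229.

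Per exon length, the cortex used 1 isoform of each pair far above the other. Cox4i1 stood at 97.4 RPKM in repopulation, 121 RPKM in depletion and 139 RPKM in control, against 1.02 RPKM in repopulation, 1.01 RPKM in depletion and 1.29 RPKM in control for Cox4i2, the isoform known from lung. Cox6a1 stood at 158 RPKM in repopulation, 176 RPKM in depletion and 203 RPKM in control, against 5.24 RPKM in repopulation, 5.56 RPKM in depletion and 6.000 RPKM in control for Cox6a2, the heart and muscle isoform. Cox7a2 stood at 49.5 RPKM in repopulation, 59.6 RPKM in depletion and 62.9 RPKM in control, against 0.704 RPKM in repopulation, 1.13 RPKM in depletion and 1.14 RPKM in control for Cox7a1, also a heart and muscle isoform. Cox6b1 stood at 119 RPKM in repopulation, 135 RPKM in depletion and 146 RPKM in control, against 1.07 RPKM in repopulation, 1.22 RPKM in depletion and 1.29 RPKM in control for Cox6b2, known from testis. The 4 tested tissue isoforms Cox4i2, Cox6a2, Cox6b2 and Cox7a1 gave no call in edgeR or DESeq2 in any comparison, with 1 lower at an unadjusted p under 0.05 in repopulation against control. Their levels of 0.377 to 4.08 CPM give standard errors of 0.13 to 0.33 on the log2 scale, so a fall of the size seen in the other subunits was not detectable in most of them. Ndufa4 stood at 57.1 RPKM in repopulation, 67.05 RPKM in depletion and 71.1 RPKM in control, against 1.36 RPKM in repopulation, 1.61 RPKM in depletion and 1.51 RPKM in control for Ndufa4l2, its hypoxia-induced paralog, which gave -0.17 ± 0.16, adjusted p = 0.455 in repopulation against control.

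Genes for all main pieces of ATP synthase fell after repopulation. Of the 15 nuclear subunits, 13 fell in repopulation against control and 12 against depletion, and all 5 genes of the catalytic head with its central stalk fell in both. Atp5b (chr10:128083273-128090391), the catalytic beta subunit, read 609, 662, 602, 622 and 651 CPM in repopulation libraries, 752, 815, 715, 781 and 699.9 CPM in depletion libraries and 824, 770.4, 804, 743 and 749 CPM in control libraries. No repopulation library reached the other 2 groups, which overlapped, with -0.31 ± 0.04, adjusted p = 6.41e-06 against control and -0.26 ± 0.04, adjusted p = 5.76e-05 against depletion. Atp5a1, the alpha subunit that alternates with beta in the head, averaged 529.8 ± 25.4 CPM in repopulation, 633 ± 32.6 CPM in depletion and 608 ± 23.6 CPM in control, with -0.20 ± 0.04, adjusted p = 0.000334 and -0.26 ± 0.04, adjusted p = 3e-05.

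Atp5e (chr2:174461072-174464105), the epsilon subunit of the central stalk, had the largest called fall of all nuclear subunits against control. It read 20.4, 22.5, 21.5, 22.1 and 24.1 CPM in repopulation libraries, 29.5, 36.7, 27.8, 25.6 and 24.2 CPM in depletion libraries and 36.9, 34.3, 37.7, 29.2 and 32.3 CPM in control libraries. The repopulation libraries lay below the others, by a narrow margin over depletion 5, with -0.63 ± 0.10, adjusted p = 0.000153 against control and -0.38 ± 0.10, adjusted p = 0.0142 against depletion. Atp5k, a small membrane subunit found where ATP synthase pairs into dimers and chosen here after its values were seen, came next, at -0.56 ± 0.09, adjusted p = 0.000203 and -0.39 ± 0.09, adjusted p = 0.00702. Atp5d, the delta subunit of the central stalk, averaged 98.4 ± 1.55 CPM in repopulation, 107 ± 6.44 CPM in depletion and 121 ± 4.11 CPM in control, with -0.30 ± 0.04, adjusted p = 4.3e-06 against control; it shares exon sequence with Cbarp on the other strand.

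The c ring of ATP synthase is built from 1 mature protein encoded by 3 genes. Their exons, summed over all annotated transcripts, come to 2181 bases for Atp5g3, 4912 for Atp5g1 and 1675 for Atp5g2. Levels per length therefore also depend on the annotation. Atp5g3 stood highest per length, at 53.2 RPKM in repopulation, 64.5 RPKM in depletion and 67.2 RPKM in control, against 13.1 RPKM in repopulation, 13.9 RPKM in depletion and 15.7 RPKM in control for Atp5g1 and 8.502 RPKM in repopulation, 9.48 RPKM in depletion and 9.47 RPKM in control for Atp5g2. Atp5g3 read 115, 117, 115, 114 and 119 CPM in repopulation libraries, 147, 155, 136, 143 and 123 CPM in depletion libraries and 145, 150.1, 152, 143 and 143 CPM in control libraries. Its repopulation libraries were tightly grouped below all others, with -0.34 ± 0.04, adjusted p = 4.59e-06 against control and -0.28 ± 0.04, adjusted p = 4.88e-05 against depletion. Atp5g1 fell against control (-0.26 ± 0.04, adjusted p = 3.21e-05) and was not called against depletion (-0.08 ± 0.04, adjusted p = 0.17). Atp5g2 was called in neither (-0.16 ± 0.08, adjusted p = 0.127 and -0.15 ± 0.08, adjusted p = 0.181), and 36.7% of its 50-base stretches also occur in other transcripts, so its count is uncertain. The other subunit of complex V not called against control was Atp5l (-0.09, adjusted p = 0.35).

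**Figure D3:**
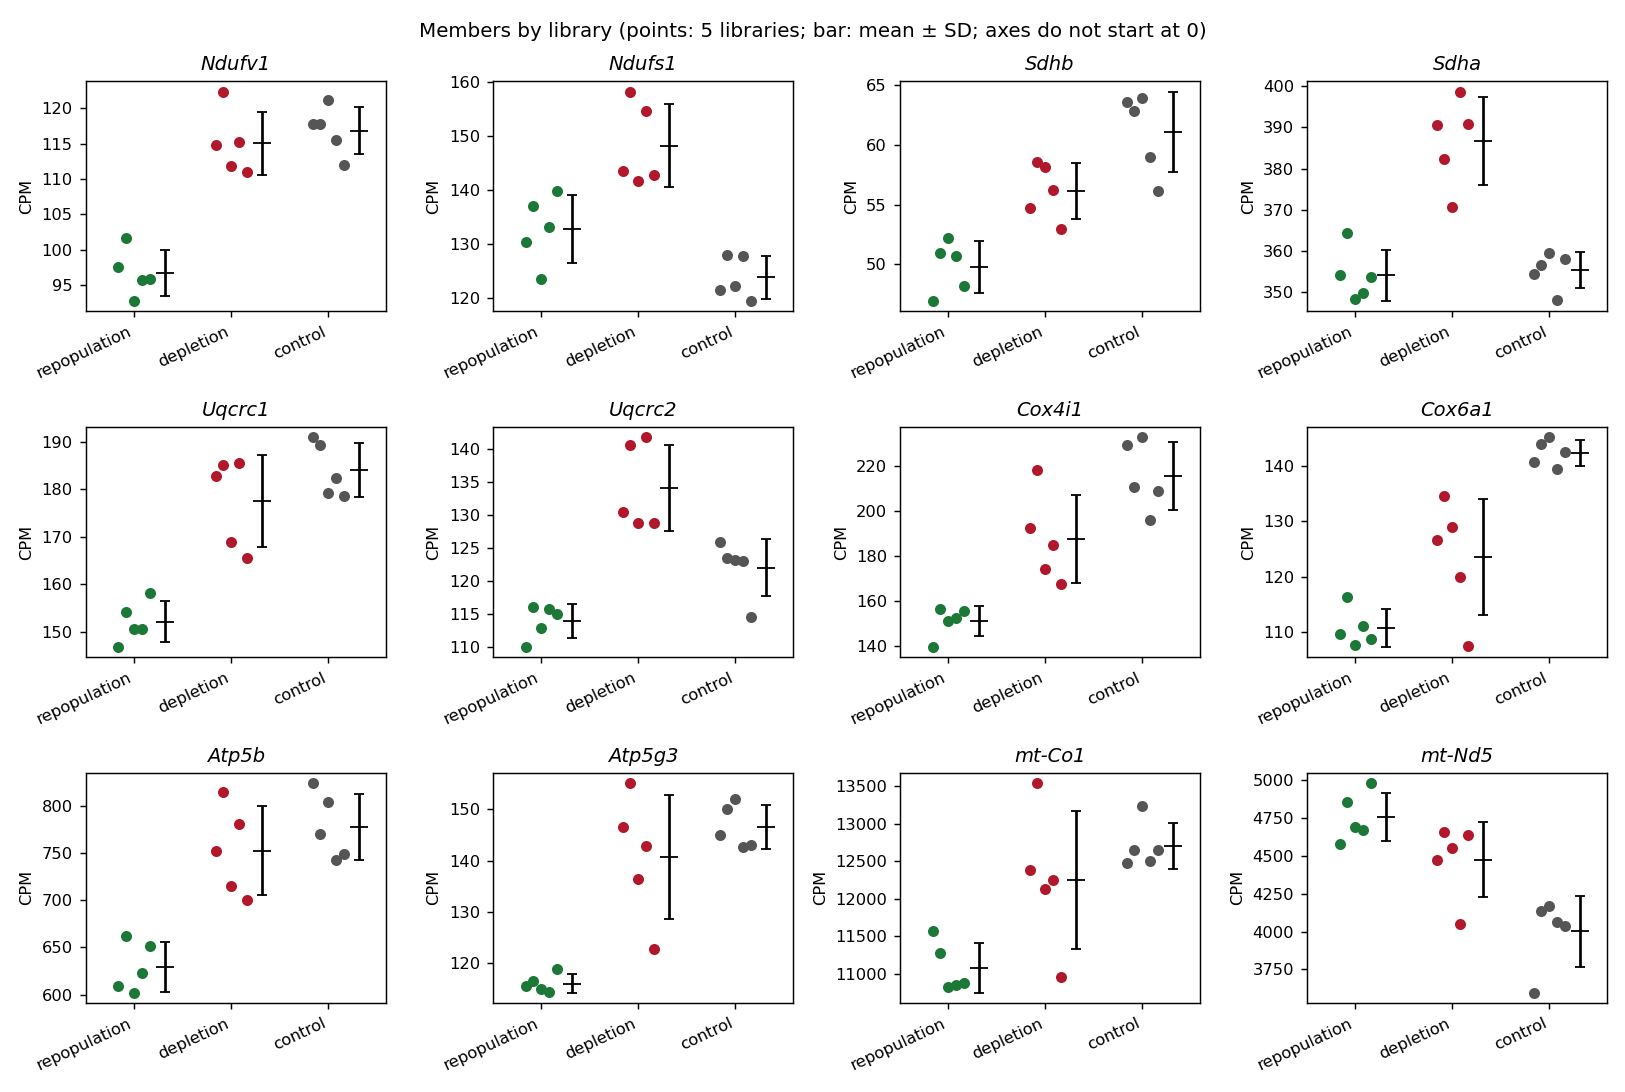
The y axes give the CPM of 12 members, 1 point per library, with repopulation left, depletion in the middle and control right and the group mean ± SD beside the points. Ndufv1, Sdhb, Uqcrc1, Cox4i1, Atp5b and Atp5g3 have all 5 repopulation libraries below the other 10; Ndufs1, Sdha and Uqcrc2 are highest in the depletion libraries; mt-Nd5 has its highest mean after repopulation.

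The mitochondrially encoded genes fall into a readable and an unreadable set in these counts. The 7 genes mt-Nd1, mt-Nd2, mt-Nd4, mt-Nd5, mt-Nd6, mt-Co1 and mt-Cytb held 24374 to 609809 counts per library. The 6 genes mt-Co2, mt-Atp8, mt-Atp6, mt-Co3, mt-Nd3 and mt-Nd4l lie next to each other on the mitochondrial genome and held 0 to 87. Nearly all 50-base stretches of 5 of these 6 also occur in other annotated transcripts, chiefly those of copies on chromosome 1, namely 100% for mt-Co2, 99.9% for mt-Co3, 99.5% for mt-Atp6, 98.8% for mt-Nd4l and 98.0% for mt-Nd3, while the annotation used holds no copy of mt-Atp8. Those copies held few counts too, with 48 to 111 per library for Gm28661, the copy of mt-Co2. The first 100 bases of mt-Co2 and of its copy are printed to show that a read of this length carries no difference between them.
mt-Co2, chrM:7013-7112, plus strand: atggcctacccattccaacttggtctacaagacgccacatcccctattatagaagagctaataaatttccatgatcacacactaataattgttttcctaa
Gm28661, chr1:24615466-24615565, minus strand: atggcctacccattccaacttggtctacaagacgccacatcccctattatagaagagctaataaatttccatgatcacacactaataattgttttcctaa

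Over the 681 bases of the copy, all 681 were identical to mt-Co2 in the GENCODE transcripts (GRCm38). The copies of mt-Atp6 (678 of 678 bases), mt-Co3 (783 of 783) and mt-Nd4l (294 of 294) were identical too. That of mt-Nd3 differed at 1 of 345 bases, T3C, counted from 1 at the 5′ end of mt-Nd3. Of the readable genes, mt-Nd4 shares 62.2% and mt-Co1 51.1% of its stretches with other transcripts, and mt-Nd2 and mt-Nd5 under 10%. How the counting treated reads with several places was not stated, and its part in the low counts of these 6 genes was not tested. Sums over mitochondrially encoded genes rest on the 7 others.

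**Figure D4:**
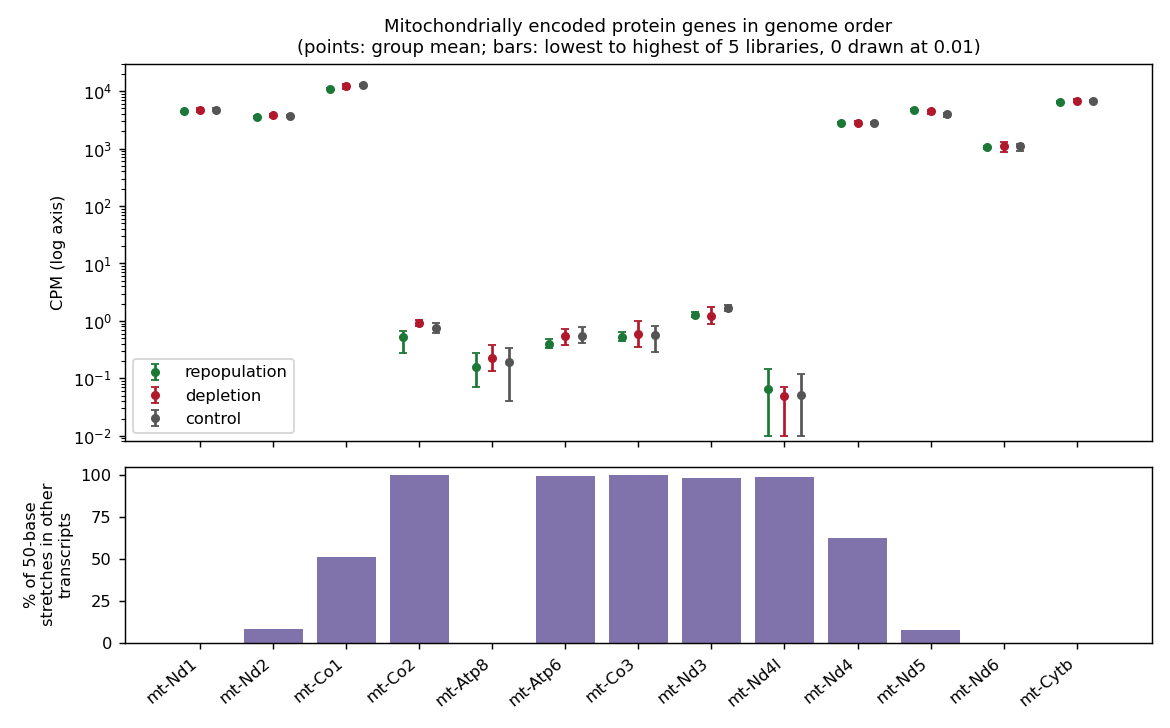
The upper panel gives CPM on a log axis, with 0 drawn at the foot, for the 13 mitochondrially encoded protein genes in genome order, as group means with the lowest and highest of 5 libraries; the lower panel gives the percentage of each gene's 50-base stretches that occur in other annotated transcripts. The 6 neighbours from mt-Co2 to mt-Nd4l lie below 2 CPM, and the other 7 genes at 867 CPM or more in every library.

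Among the 7 readable genes the median log2 fold change was -0.04 in repopulation against control, -0.08 in repopulation against depletion and 0.02 in depletion against control. Leaving out single libraries moved these medians between -0.052 (without repopulation 2) and -0.022 (without repopulation 4), between -0.099 (without depletion 5) and -0.034 (without depletion 3), and between -0.011 (without depletion 2) and 0.044 (without control 3), so the sign in depletion against control rests on single libraries. mt-Cytb, the only mitochondrially encoded subunit of complex III, read 6432, 6726, 6462, 6325 and 6718 CPM in repopulation libraries, 6600.4, 7177, 6959.7, 6456 and 6515 CPM in depletion libraries and 6381, 6545, 7033, 6448 and 6625 CPM in control libraries. All 3 groups overlapped, with -0.02 ± 0.04, adjusted p = 0.781 against control. All 8 nuclear subunits of that complex among the members fell. mt-Nd1, which lies at the quinone end of complex I, gave -0.10 ± 0.04, adjusted p = 0.0678 and -0.09 ± 0.04, adjusted p = 0.124, not called. mt-Nd2 (-0.04), mt-Nd4 (0.00) and mt-Nd6 (-0.06) were not called against control either.

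Of the readable genes, mt-Co1 and mt-Nd5 moved, in opposite directions. mt-Co1 (chrM:5328-6872), the catalytic subunit of complex IV, read 11567, 11284, 10822, 10854 and 10886 CPM in repopulation libraries, 12378, 13537, 12129, 12243 and 10965 CPM in depletion libraries and 12480.0, 12646, 13237, 12497 and 12653 CPM in control libraries. The repopulation libraries lay below all controls and overlapped the depletion libraries through depletion 5. mt-Co1 fell against control (-0.20 ± 0.04, adjusted p = 0.000574) and against depletion (-0.14 ± 0.04, adjusted p = 0.0142). mt-Nd5 (chrM:11742-13565), a proton-pumping subunit of complex I, read 4582, 4856, 4691, 4673 and 4982 CPM in repopulation libraries, 4474, 4656, 4556, 4051 and 4639.7 CPM in depletion libraries and 3596, 4133, 4169, 4066 and 4038 CPM in control libraries. The repopulation libraries lay above all controls and overlapped the depletion libraries.

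mt-Nd5 rose in repopulation against control (0.25 ± 0.04, adjusted p = 6.2e-05) and in depletion against control (0.16 ± 0.04, adjusted p = 0.00777), and gave 0.09 ± 0.04, adjusted p = 0.158 in repopulation against depletion. It overlaps mt-Nd6, which lies on the other strand, so its count is uncertain without strand; mt-Nd6 itself gave -0.06 ± 0.10, adjusted p = 0.711 against control. The remaining call, mt-Co2 in repopulation against depletion (-0.84 ± 0.25, adjusted p = 0.0195), rests on 8 to 19 counts per repopulation library and 19 to 30 per depletion library and was lost without repopulation 1 or repopulation 5. The 2 mitochondrial ribosomal RNAs, which are not members, fell in all 3 comparisons, with log2 fold changes for mt-Rnr1 and mt-Rnr2 of -0.51 and -0.41 in repopulation against control, -0.33 and -0.25 in repopulation against depletion, and -0.19 and -0.17 in depletion against control (adjusted p of 0.0157 or less).

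On PLX3397 itself, few nuclear subunits passed the test, with calls in both directions. In depletion against control, 3 of the 78 rose and 7 fell, where 8.19% of all genes rose and 8.35% fell, so the share of members called lower was close to the background. At an unadjusted p under 0.05, 28 were lower and 3 higher, and DESeq2 called 8 lower and 3 higher. The median log2 fold change was -0.09, against 0.00 over all genes, and 73 of the 78 values were negative. Every depletion library lay below every control library in 5 of the 78 (5.38% of all genes) and above in 3 (4.98% of all genes). The 3 that rose were Ndufs1, Sdha and Uqcrc2, described above. The 7 that fell were Ndufb7, Ndufs4, Cox4i1, Cox6a1, Cox8a, Atp5g1 and Atp5d, with log2 fold changes from -0.20 to -0.15. The call for Cox4i1 (-0.20 ± 0.06, adjusted p = 0.0352) was lost under 11 of the 23 alternative settings. Of the mitochondrially encoded genes 1 rose, mt-Nd5, and 0 fell. At an unadjusted p under 0.05, 1 was higher and 1 was lower, and DESeq2 called 1 higher and 0 lower.

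The count of falling subunits hangs on single libraries in this comparison. Depletion 2 stood at 105% of the control level by the median of the nuclear subunits, where the other 4 depletion libraries stood at 89.1 to 93.3%. Without it, 32 nuclear subunits were lower in depletion against control, and without control 4 it was 16. With the per-library trends over exon length and GC content taken out, 5 rose (Atp5a1, Ndufs1, Ndufv1, Sdha and Uqcrc2) and 1 fell (Atp5g1), where 9.91% of all genes rose and 4.74% fell. Of the calls to rise, Sdha went to 0.17 (adjusted p = 0.000136) and Ndufs1 to 0.22 (adjusted p = 0.000552).

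Length and base composition moved with the fold changes in these libraries and are given beside the members. The nuclear subunits had a median exon length of 1631 bases, against 3930 bases over all genes tested, and a median GC content of 50.2%, against 49.5%. Exon length here is summed over all annotated transcripts of a gene and can exceed that of the transcripts in use. The length classes and the trends taken out rest on this summed length, so the length of the transcripts in use was not matched. Among genes of under 1000 bases, 17 of 20 nuclear subunits fell in repopulation against control, with a median of -0.36, where 11.1% of all genes of that length fell, with a median of -0.03. From 1000 to 2000 bases it was 26 of 29 (median -0.32), where 25.6% of all genes fell (median -0.12). From 2000 to 4000 bases it was 17 of 18 (median -0.25), where 22% fell (median -0.06), and above 4000 bases 8 of 11 (median -0.26), where 9.04% fell (median 0.06). With the length and GC trends taken out, 66 of the 78 fell and 0 rose in repopulation against control, with a median of -0.28. Of all genes 16.4% fell and 7.74% rose there, with a median of -0.02. In repopulation against depletion 68 fell and 0 rose, with a median of -0.23. Of all genes 19.5% fell and 4.25% rose there, and the median over all genes also moved down, to -0.06.

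**Figure D5:**
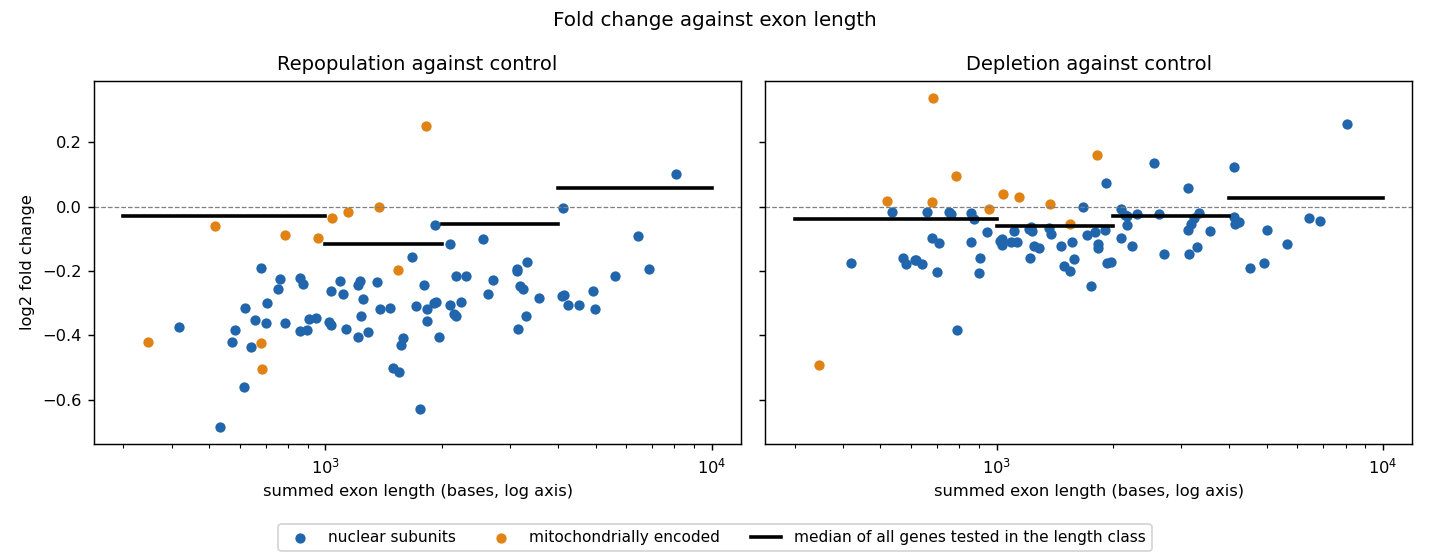
The x axis is the summed exon length of each tested member in bases on a log axis and the y axis its log2 fold change; black lines are the medians of all tested genes in 4 length classes. In repopulation against control nearly all nuclear subunits lie under the line of their length class. The medians of the nuclear subunits in these classes run from -0.36 to -0.25. In depletion against control the nuclear subunits lie nearer to the line, most of them under it.

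Reads that can come from pseudogenes or antisense neighbours touch many of the nuclear subunits. Those described above include Ndufb6, Uqcrc2 and Atp5a1, which share exon sequence with Smim27, Pdzd9 and Haus1 on the other strand. Atp5g1 has 11.1% of its 50-base stretches in other transcripts. The paralogs Cox7a2l (13.8% of stretches) and Ndufa4l2 (Shmt2 on the other strand) are touched too. Of the 81, 45 have under 10% of their 50-base stretches in other transcripts and share no exon with another gene, and 42 of these were tested. Among the 42, 38 fell and 0 rose in repopulation against control (median -0.31), 35 fell and 0 rose in repopulation against depletion (median -0.22), and 4 fell and 1 rose in depletion against control (median -0.09).

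The 11 assembly factors and paralogs included several that fell after repopulation. Of all genes, 15.2% fell in repopulation against control and 8.98% in repopulation against depletion. In repopulation against control 7 fell and 0 rose (8 and 0 at an unadjusted p under 0.05, 7 and 0 by DESeq2), and in repopulation against depletion 3 fell and 0 rose (6 and 0, and 4 and 0). Cox7a2l, a paralog of Cox7a2, read 42.3, 41.1, 42.5, 39.1 and 40.2 CPM in repopulation libraries, 45.3, 51.6, 43.99, 49.3 and 44.2 CPM in depletion libraries and 57.4, 53.3, 56.6, 53.5 and 53.5 CPM in control libraries. All 3 groups were apart, with -0.42 ± 0.05, adjusted p = 1.28e-06 against control, -0.19 ± 0.05, adjusted p = 0.00569 against depletion and -0.23 ± 0.05, adjusted p = 0.00127 in depletion against control. The complex I assembly factor Ndufaf1 gave -0.31 ± 0.06, adjusted p = 0.000275 and -0.22 ± 0.06, adjusted p = 0.0142 in the repopulation comparisons, Ndufaf5 gave -0.32 ± 0.06, adjusted p = 0.000506 against control, and Ndufaf4 fell against depletion (-0.17 ± 0.05, adjusted p = 0.0249), a call lost without any of 5 single libraries.

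Outside the members, other genes that build or feed the respiratory chain were counted in the same way. Beside the counts of these and later lists, 15.2% of all genes fell and 13.9% rose in repopulation against control. In repopulation against depletion 8.98% fell and 7.61% rose, and in depletion against control 8.35% fell and 8.19% rose. Of 38 assembly factors outside the prefixes, 13 fell and 1 rose in repopulation against control, including Uqcc2, which assembles complex III (-0.47 ± 0.07, adjusted p = 1.05e-05), and Ecsit, a complex I assembly factor (-0.28 ± 0.05, adjusted p = 5.79e-05); against depletion 8 fell and 0 rose (14 and 1 at an unadjusted p under 0.05). Of 18 electron carriers and coenzyme Q genes, 8 fell and 1 rose against control, and 3 fell and 0 rose against depletion. Cyc1, the cytochrome c1 subunit of complex III that the prefixes leave out, averaged 90.5 ± 3.25 CPM in repopulation, 101 ± 4.43 CPM in depletion and 104 ± 3.12 CPM in control, with -0.21 ± 0.04, adjusted p = 0.000152 against control and -0.16 ± 0.04, adjusted p = 0.00298 against depletion.

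Of 15 carriers of ADP, phosphate and metabolites, 10 fell and 0 rose in repopulation against control (10 and 0 also at an unadjusted p under 0.05 and by DESeq2), and 9 fell and 1 rose against depletion. Slc25a4, the adenine nucleotide carrier that exports ATP, gave -0.24 ± 0.03, adjusted p = 1.05e-05, and Vdac1, the outer membrane pore, gave -0.20 ± 0.03, adjusted p = 1.6e-05, both against control. The 1 that rose against depletion was Ucp2 (0.80 ± 0.09, adjusted p = 1.28e-06), which also fell in depletion against control (-0.73 ± 0.09, adjusted p = 6.94e-06). Of 23 import translocase genes, 13 fell and 0 rose against control (also 13 and 0 by DESeq2), with Timm50 at -0.45 ± 0.07, adjusted p = 5.51e-05 and Tomm22 at -0.33 ± 0.05, adjusted p = 5.59e-05. Of 18 TCA cycle enzymes, 7 fell and 1 rose against control, with Mdh2 at -0.22 ± 0.03, adjusted p = 1.22e-05, and 4 rose and 0 fell in depletion against control, with Dlat at 0.13 ± 0.04, adjusted p = 0.0104 (5 and 0 at an unadjusted p under 0.05 and by DESeq2).

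Of 25 genes that maintain and read mitochondrial DNA, 3 rose and 3 fell in repopulation against control, shares near or below those of all genes (13.9% higher, 15.2% lower), and 3 rose and 0 fell in depletion against control (3 and 1 at an unadjusted p under 0.05, 3 and 0 by DESeq2). Lrpprc, which stabilises mitochondrial messenger RNAs, rose in both (0.31 ± 0.04, adjusted p = 5.62e-06 and 0.31 ± 0.04, adjusted p = 3.01e-06). Of 16 regulators of mitochondrial biogenesis, 5 rose and 2 fell in repopulation against control. The coactivator Ppargc1a rose (0.24 ± 0.05, adjusted p = 0.000309), as did the nuclear receptor Esrrg (0.41 ± 0.07, adjusted p = 7.44e-05), and the nuclear receptor Esrra fell in repopulation against control (-0.36 ± 0.04, adjusted p = 3.4e-06) and in depletion against control (-0.24 ± 0.04, adjusted p = 0.000437). These comparisons share control or repopulation libraries.

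Markers of some other cell types moved between the groups as well, and their part in the fall of the nuclear subunits was not tested. Of 10 oligodendrocyte markers, 0 rose and 2 fell in repopulation against control (median log2 fold change -0.11), 10 fell in repopulation against depletion and 8 rose in depletion against control, with summed levels of 4777 to 5735 CPM in the repopulation libraries, 5652 to 6866 CPM in the depletion libraries and 5284 to 5565 CPM in the control libraries. Of 10 inhibitory neuron markers, 2 rose and 4 fell in repopulation against control, with a median log2 fold change of 0.05. Their summed levels were 1456 to 1616 CPM in the repopulation libraries and 1425 to 1506 CPM in the control libraries. Pvalb, which marks fast-spiking interneurons, fell (-0.53 ± 0.07, adjusted p = 3.75e-06), and so did Lamp5 (-0.43 ± 0.09, adjusted p = 0.00367). Gad1 rose (0.16 ± 0.04, adjusted p = 0.00376). Of 10 excitatory neuron markers 1 rose and 2 fell in repopulation against control, near the shares of all genes (13.9% and 15.2%). Of 10 astrocyte markers 0 rose and 5 fell in repopulation against depletion (8.98% of all genes fell), and 0 rose and 3 fell in repopulation against control, with Aldoc at -0.30 ± 0.04, adjusted p = 3.89e-06. Of 11 tested long RNAs that stay in the nucleus, listed as a sign of RNA quality, 1 rose and 3 fell in repopulation against control. Of all genes 13.9% rose and 15.2% fell there. The summed levels of these RNAs were 9903 to 10973 CPM in the repopulation libraries and 9913 to 10729 CPM in the control libraries. Of 10 oligodendrocyte precursor markers, 7 rose in repopulation against depletion and 9 fell in depletion against control. Of 10 endothelial markers, 6 rose in repopulation against depletion and 5 fell in depletion against control, and of 10 markers of pericytes and smooth muscle 3 rose and 1 fell in the same comparisons. The 8 striatum markers gave no call in edgeR or DESeq2 and none at an unadjusted p under 0.05.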

How the data were processed

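Bulk RNA-seq of mouse cortex was analysed from the deposited table of raw read counts per gene, in whole numbers, for 15 libraries. The tools listed per the submitters' processing notes are STAR, FastQC, MultiQC, DESeq and DESeq2, and the build is mm10. How the reads were counted, against which annotation and with which strand setting is not given in the sources used here. Every row carries a gene symbol, and all columns matched a label.

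From these counts, edgeR 4.0.16 in R 4.3.3 (TMM scaling, filterByExpr, robust quasi-likelihood F test) was fitted on all 15 libraries of 3 groups, without covariates. P-values were adjusted by the Benjamini-Hochberg method across 18369 genes, with a threshold of 0.05; fold changes are log2 with the standard error (SE) from the F statistic. CPM scale counts to the TMM-adjusted library size, and RPKM divide CPM by the summed exon length in kilobases (GENCODE mouse release 21, GRCm38, joined by symbol, 93.3% of symbols). The shared 50-base stretches were counted in GENCODE transcripts on both strands. Length and GC trends were taken out per library with natural splines (4 degrees of freedom each). The script was tested on simulated data. No sample was left out, and the separate mice make the spread between libraries a spread between animals.

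The members and lists were chosen with earlier results of these data known. Genes are named by rule: all mitochondrially encoded protein genes, Sdha to Sdhd, isoform pairs, the 3 members per complex and comparison with the smallest adjusted p, and up to 3 called genes per other list. Further members were named after their values were seen where they are an exception or complete a small count. Alternatives were median-of-ratios size factors, no count filter, DESeq2 1.42.0, a replicate block, length and GC trends taken out, mitochondrial reads left out of the scaling, only the 2 groups compared, and each library left out. Libraries of a group differed by more than sampling noise (chi-square 2.53 to 9.95 per degree of freedom).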

Additional observations from a re-analysis of the deposited data

Results flagged for a closer look

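Single libraries stood apart from the 4 others of their group in 12 of 204 groups of values examined; chance alone gives about 1 in 20. Depletion 2 was high in 5 of them: Cox6b1 (104 CPM, where the other depletion libraries had 92.1 to 94.8), Cox6c (103 CPM, others 86.6 to 89.5), Uqcr10 (40.7 CPM, others 31.3 to 32.2), the median nuclear subunit level (105% of control, others 89.1 to 93.3%) and the median of complex I (106%, others 89.4 to 92.9%). Repopulation 2 was high for the median of complex II (86.9%, others 84.4 to 84.8%), and repopulation 3 was low for Atp5d (95.7 CPM, others 98.7 to 99.4). Control 3 was high for Atp5g2 (17.9 CPM, others 14.9 to 15.7) and mt-Co1 (13237 CPM, others 12480 to 12653), control 5 was low for Uqcrc2 (114.5 CPM, others 123 to 126), and control 1 was low for mt-Nd5 (3596 CPM, others 4038 to 4169) and high for nuclear counts per 100 mitochondrial counts (19.4, others 17.4 to 17.9).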

How the results depend on the processing

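The fall of the nuclear subunits after repopulation kept its direction under all 23 alternatives, with 66 to 69 called lower against control and 45 to 62 against depletion when single libraries were left out. Replicate numbers did not pair the samples: same-numbered libraries had correlations of deviations of -0.131 to 0.103, 1 of 15 pairs exceeded 0.1, and 1 of 15 libraries correlated best with its own number. With the replicate block, 68, 57 and 10 nuclear subunits were lower in repopulation against control, repopulation against depletion and depletion against control, and 1, Ndufs1, was higher in repopulation against control. That same count of 1 arose without mitochondrial reads in the scaling and with only the 2 groups compared (0 to 1 without single libraries). In depletion against control the nuclear count called lower was 17 without a count filter and 1 with length and GC trends taken out, with or without the block, and 5 to 32 when single libraries were left out; the count called higher was 5 with those trends taken out. The median log2 fold change of the nuclear subunits there was -0.026 with the trends taken out and -0.027 with the block as well. Over all genes tested, the median in depletion against control was -0.002 in the main fit and 0.041 with the trends taken out. Among subunits with few shared stretches and no shared exon, fewer by construction, the counts were 38 and 35 lower in the repopulation comparisons, and 4 lower and 1 higher in depletion against control. Mitochondrially encoded genes called lower in repopulation against control numbered 2 without a count filter, 3 with only the 2 groups, and 1 to 2 without single libraries; in repopulation against depletion 1 was higher without a filter and 1 to 3 were lower without single libraries; in depletion against control 0 to 1 were lower.

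Over all genes, taking out the trends gave 852 lower (831 with the block) in depletion against control, 1389 higher (1290) in repopulation against control, and 763 higher (729) and 3501 lower (3276) in repopulation against depletion. By medians over genes, the nuclear less mitochondrial difference was -0.27 in repopulation against control, -0.16 in repopulation against depletion and -0.11 in depletion against control. By the ratio of sums it was -0.21, -0.15 and -0.06 in the same order. Without single libraries, the difference by the ratio of sums ranged from -0.22 to -0.18, from -0.17 to -0.13 and from -0.081 to -0.036. With totals of nuclear genes alone, nuclear subunits took 0.557% after repopulation and 0.671% in control, and mitochondrial protein genes 3.59% and 3.73%. Ndufv1 in depletion against control reversed to 0.12 with the trends taken out, with and without the block. Of 52 named members tested, 34, 32 and 12 were called in repopulation against control, repopulation against depletion and depletion against control, and 32, 27 and 6 of them under every alternative; the cause of the losses was not tested. Depth limits the tissue isoforms and the 6 mitochondrial genes under 2 CPM.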
